A study of Homo sapiens with 4 samples.

Results

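NRSF/REST bound 269 sites that lay inside protein-coding genes shorter than 100 kb, away from gene 5′ ends and coding exons, and that were present at both SF-1 dosages. They were selected on the called positions in both lists. A site of the basal list was kept if it overlapped a site of the increased list by at least 1 bp, if its midpoint lay more than 2 kb from the 5′ end of every protein-coding gene, if it touched no coding exon, and if its midpoint fell in a protein-coding gene shorter than 100 kb (the longest gene where several overlapped). The basal list held 5323 sites, of which 3431 (64.5%) were shared, and the 269 sites made up 7.84% of the shared ones. They were compared with 897 shared noncoding sites within longer genes, with 1610 outside protein-coding genes and with 655 at promoters or over coding exons.

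The H295R line comes from a human carcinoma of the adrenal cortex, and H295R/TR SF-1 is a clone of it in which doxycycline induces additional SF-1, the nuclear receptor that controls steroid production in the adrenal gland. An antibody against NRSF/REST was used for ChIP-seq in 1 library of untreated cells, at basal SF-1 dosage, and in 1 library of cells kept in doxycycline for 3 days, at increased SF-1 dosage. Both libraries came from the same single clone, the sample labels give a doxycycline concentration of 1 mg/mL where the study's methods give 1 µg/ml, and 2 input DNA libraries were not analysed here. With 1 library per dosage, values at the 2 dosages are given without a test. The deposited lists hold positions in hg19 on 50-bp steps, the same score of 1000 for every site and an order number whose meaning is not stated in the sources used here. They hold no read counts, so the depth is unknown, and the width of a site is not a measure of occupancy. Intervals cover counting error over sites only.

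NRSF/REST is a zinc finger repressor that binds a long element called RE1 and recruits corepressor complexes with histone deacetylases and demethylases. It is best known for keeping neuronal genes silent outside the nervous system, and many of its sites lie within introns, far from the promoter of the gene. The element has a left and a right part, which were written here as CTGTCC and GGTGCTG, separated by 2 free bases. NRSF/REST is also known to bind the parts of the element when they stand farther apart.

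A match to this element with no more than 2 mismatches in the 13 fixed bases, on either strand, was found in 185 of the 269 sites. The best matches of 8 of the 10 widest sites are printed first because 9 of the 10 held it with no mismatch. The last places among the 10 were tied at 1049 bp between DLGAP3, USP7, SRRM3 and DNAI1, and the smaller order number decided. The SRRM3 site also had no mismatch, and that of DNAI1 had 1 (G3C). Each sequence runs in the direction of the element, with 4 bases before it and 2 after it, and capitals mark the fixed bases that equal the consensus. The strand is that of the hg19 sequence.
VRK3, chr19:50490538-50490558, plus strand: tccgCTGTCCctGGTGCTGaa
LYPD5, chr19:44293406-44293426, plus strand: ggatCTGTCCttGGTGCTGac
CACNA1H, chr16:1238874-1238894, minus strand: gctgCTGTCCatGGTGCTGaa
SLC1A6, chr19:15126963-15126983, plus strand: aacgCTGTCCgtGGTGCTGaa
UNC5A, chr5:176264773-176264793, minus strand: ggggCTGTCCacGGTGCTGaa
SLC8A2, chr19:47947742-47947762, plus strand: tgagCTGTCCgcGGTGCTGaa
DLGAP3, chr1:35390620-35390640, minus strand: ggaaCTGTCCcgGGTGCTGag
USP7, chr16:9025888-9025908, minus strand: ggcaCTGTCCgtGGTGCTGaa
The site in MGAT5B, also among the 10, had no match at this limit.

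The next set shows the widest site of further gene groups described below, together with the site in the gene of the factor itself. Substitutions are counted from 1 at the first base of the left part, with the consensus base first.
HCN4, chr15:73639244-73639264, minus strand: ggcgCTGTCCgtGGTGCTGaa
RIMS4, chr20:43408984-43409004, plus strand: ggaaCTGTCCgtGGTGCTGac
NPTXR, chr22:39220689-39220709, plus strand: tgccCTGTCCagGGTGCTGaa
ONECUT1, chr15:53075695-53075715, plus strand: gaccCTGTCCagGGTcCTGac
RAP1GAP, chr1:21974580-21974600, minus strand: gccgCTGTCCaaGGTGCTaac
MAPK8IP1, chr11:45921028-45921048, plus strand: ggatCTGTCCaaGGTGCcagg
REST, chr4:57821425-57821445, plus strand: tgatCTGTCCgtGGTaCTtgg
The matches in ONECUT1 (G12C) and RAP1GAP (G15A) had 1 mismatch, and those in MAPK8IP1 (T14C and G15A) and REST (G12A and G15T) had 2. Among the comparison groups, the widest site in a zinc finger gene was in ZNF219 (chr14:21563762-21563782, minus strand, tgcaCTcTCCatGGTaCTGaa) and the single one in a ribosomal protein gene was in RPS29 (chr14:50056318-50056338, minus strand, actgCTtTCCacaGTGCTGaa).

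At the top of the list by width, VRK3 had a site of 1449 bp at basal and 1349 bp at increased SF-1 dosage, with order numbers 6 and 7. LYPD5, which encodes a membrane protein of the Ly6 family, followed with 1199 and 1149 bp (order numbers 60 and 87), and the wider SLC1A6 site with 1199 and 1099 bp. USP7, the gene of a deubiquitinating enzyme, had a site of 1049 bp in intron 1 that was 699 bp at the increased dosage, although its order numbers were close (300 and 316). The SRRM3 and DNAI1 sites, equally wide at the basal dosage, were 549 and 1099 bp at the increased dosage.

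The widest site, in intron 12 of VRK3, held 5 matches. VRK3 encodes a kinase of the vaccinia-related kinase family. The 300 bases shown here, chr19:50490400-50490699 on the plus strand, hold 4 of them in the same direction, the first 2 with no mismatch and the other two with 1 mismatch each.
VRK3: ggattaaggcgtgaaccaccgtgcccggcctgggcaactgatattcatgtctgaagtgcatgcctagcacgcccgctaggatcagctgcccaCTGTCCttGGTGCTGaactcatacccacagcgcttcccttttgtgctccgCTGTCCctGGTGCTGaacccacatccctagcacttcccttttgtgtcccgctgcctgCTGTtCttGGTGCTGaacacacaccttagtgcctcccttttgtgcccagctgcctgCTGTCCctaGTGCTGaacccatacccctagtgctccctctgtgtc
The starts of consecutive matches lay 50, 57 and 56 bp apart in this stretch. Of the 269 sites, 16 held more than 1 match, and 3 others held as many as 3 (UNC5A, DLGAP3 and TAS1R3).

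The element was present in 68.8% of the sites (185 of 269, 95% Wilson interval 63.0 to 74.0%), against 58.9% of all 3431 shared sites. In windows of the same width 10 kb to either side it was present in 2.79% (15 of 538, interval 1.70 to 4.55%). Against the window towards lower coordinates, 180 sites had a match where the window had none and 1 had the reverse (exact two-sided McNemar test, p = 1.19e-52). A match with no mismatch was found in 57 sites (21.2%), against 17.1% of all shared sites, and in none of the 538 windows. For the windows, a count of 0 allows a share of up to 0.558% (3 counts of the total). Median GC content was 49.6% in the sites and 47.2% in the windows.

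At up to 2 mismatches, the share with the element was higher than in shared sites outside protein-coding genes and at promoters and coding exons, and the latter difference depended on the mismatch limit. Outside protein-coding genes 55.7% of the sites had it, 13.1 percentage points fewer (Fisher's exact test, adjusted p = 0.000181 over 3 comparisons). At promoters and coding exons 57.9% had it, 10.9 points fewer (Fisher's exact test, adjusted p = 0.00345). This difference was 0.426 points with no mismatch allowed (adjusted p = 0.929), turned to -0.712 points at up to 3 mismatches (adjusted p = 0.860), and did not pass with genes shorter than 50 kb (10.1 points, adjusted p = 0.0577), by the same Fisher's exact test. Within longer genes 62.5% had it, and the difference of 6.23 points did not pass (Fisher's exact test, adjusted p = 0.0702). The classes differed in width as well, with a median of 449 bp in the sites described here, in longer genes and outside genes, and of 0.599 kb at promoters and coding exons. They also differed in base composition, with a median GC content of 44.1% in longer genes, 44.9% outside genes and 59.0% at promoters and coding exons, and the part of width and GC content in these differences was not tested beyond the split by width that follows.

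In every width class the order of the point estimates put the sites within shorter genes highest. Under 300 bp, 37 of 72 sites (51.4%, interval 40.1 to 62.6%) had the element, against 40.6% in longer genes, 30.4% outside genes and 27.4% at promoters and coding exons. From 300 bp to under 600 bp it was 85 of 128 (66.4%), against 60.5%, 58.5% and 57.0%, and none of these 3 differences passed within this width class (Fisher's exact test, adjusted p = 0.258, 0.174 and 0.174). At 600 bp and over it was 63 of 69 (91.3%, interval 82.3 to 96.0%), against 87.2%, 83.3% and 70.4%. There the difference from promoters and coding exons passed (20.9 points, Fisher's exact test, adjusted p = 0.000590) and that from sites outside genes did not (8.01 points, adjusted p = 0.159). Under 300 bp the differences from sites outside genes and from promoters and coding exons both passed (21 and 24.0 points, Fisher's exact test, adjusted p = 0.00163 for each). The split into width classes as separate tests was chosen after the data had been seen.

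**Figure D1:**
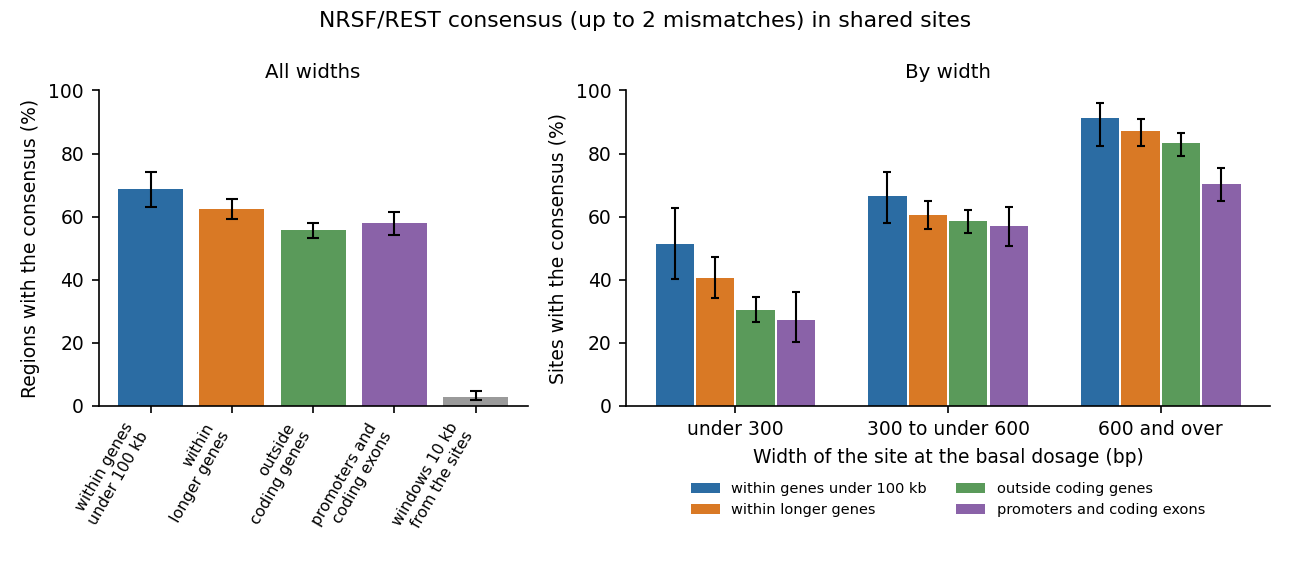
Share of regions with the NRSF/REST consensus at up to 2 mismatches, in percent, with 95% Wilson intervals as bars of error. On the left the 269 sites within shorter genes stand at 68.8% and the windows 10 kb away at 2.79%; on the right the share rises with site width in each class, from 51.4% to 91.3% within shorter genes.

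Wider sites carried closer matches. The 57 sites with no mismatch had a median width of 699 bp at the basal dosage, the 81 with 1 mismatch 499 bp, the 47 with 2 mismatches 399 bp and the 84 with more 349 bp. The median widths at the increased dosage were 649, 549, 399 and 299 bp in the same order. The ranges overlapped widely, from 149 to 1449 bp with no mismatch and from 99 to 1149 bp in the 84 sites without the element. The order number followed the width closely (Spearman's rho = -0.93 over the 269 sites, a description of sites from 1 library), and its median went from 717 in sites with no mismatch to 2352.5 in those without the element.

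The matches sat near the middle of the called sites. The best match lay a median of 29 bp from the midpoint of the basal site and 32 bp from that of the overlapping site at the increased dosage. It was within 50 bp of the basal midpoint in 126 of 185 sites (68.1%) and within 100 bp in 158 (85.4%). In 184 of the 185 sites the match also lay inside a site called at the increased dosage.

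Position 12, the first G of the right part's GCTG end, was the least constant of the fixed bases. It was not G in 56 of the 185 matches (30.3%), and these were 43.8% of the 128 matches that had any mismatch. The commonest substitution was G12C with 31 matches, followed by G3C with 17, G12A with 16 and T4G with 15. In contrast, the T at position 11 was kept in all 185 matches and the G at position 10 in 184. The bases outside the fixed ones were not free either. G stood 4 bases before the element in 71.4% of the matches and 3 bases before it in 63.8%, T stood at position 8 in 57.8%, and A followed the element at position 16 in 63.2%. In the 1836 matches of the other shared sites the same bases reached 67.0%, 57.2%, 53.2% and 70.2%, and position 12 was not G in 34.9%. These are counts of best matches at up to 2 mismatches, and the fixed bases are high because the search required them.

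**Figure D2:**
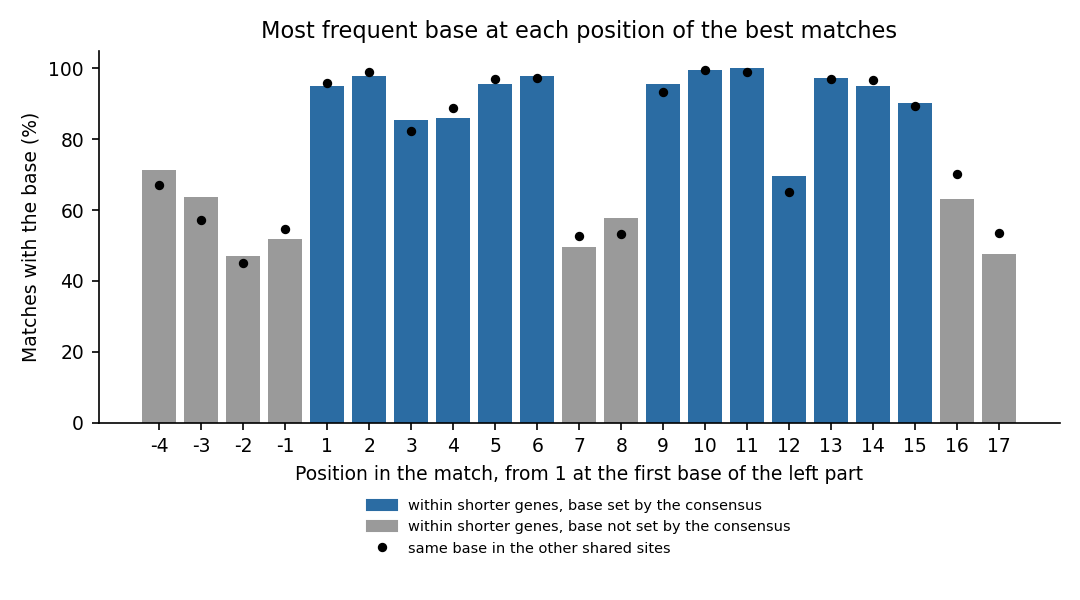
Share of best matches with the most frequent base at each position, in percent, for the 185 matches within shorter genes (bars) and for the same base in 1836 matches of the other shared sites (points). Bars for fixed bases of the consensus lie at or above 85.4% except position 12, at 69.7%, and the flanking and middle bases lie between 47.0% and 71.4%.

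Among the 185 matches, 179 distinct 21-base sequences occurred and 12 matches had a sequence shared with another. SLC1A6, a glutamate transporter gene, held 2 such sites, 1199 and 799 bp wide, whose midpoints were 1200 bp apart. These midpoints also fell in another protein-coding gene and lay outside the main transcript of SLC1A6. The sites carry its name because it is the longest gene there. Both sites had the same 21 bases, printed above for the wider one, the other lying at chr19:15125563-15125583. Whether reads could be placed in one copy or the other cannot be read from the lists.

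The 84 sites without the element were searched for its parts, each with at most 1 mismatch, 0 to 20 bases apart but not 2. Such an arrangement was found in 28 of 84 sites (33.3%, interval 24.2 to 43.9%), against 43.3% of all 1410 shared sites without the element, and in 17.3% of 168 windows. Against the window towards lower coordinates 23 sites had it alone and 4 windows had it alone (exact two-sided McNemar test, p = 0.000311), but against the window towards higher coordinates the test did not pass (exact two-sided McNemar test, p = 0.20). With the parts in swapped order the count was nearly as high, 26 of 84 sites (31.0%) against 14.3% of windows (exact two-sided McNemar test, p = 0.0428). The count for the parts in their own order exceeded that for the swapped order by 2 sites, a difference that was not tested. The arrangement was not particular to sites without the element. Of the 185 sites with it, 75 (40.5%) held the parts at other distances, against 23.2% of 370 windows (exact two-sided McNemar test against the lower window, p = 5.85e-05). In those sites a part of the element itself could be counted as 1 of the parts.

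By distance, the counts were uneven. The parts stood 9 bases apart in 12 sites, against 0 and 4 windows on the lower and higher side and 3 sites with the parts swapped. Counted together, distances of 8 to 10 bases occurred in 18 of the 84 sites (21.4%), in 0 and 6 windows and in 7 sites with the parts swapped, and in 20.3% of the 1326 other shared sites without the element. This range of distances was chosen after its counts were seen and was not tested. The 4 widest sites with such a spacing are printed here, with capitals for the bases of each part that equal the consensus.
MGAT5B, chr17:74906168-74906189, plus strand, 9 bases apart: CTGTCCccgagtgctaGTGCTG
CLEC3A, chr16:78080035-78080057, plus strand, 10 bases apart: CTGTCCgctagggccaGGTGCTG
RNF20, chr9:104299417-104299437, plus strand, 8 bases apart: CTGTCCaccacagctGTGCTG
C11orf87, chr11:109295817-109295839, plus strand, 10 bases apart: CTGTCCagccaggtctGGTGCTG
Both parts were complete in CLEC3A and C11orf87, and the right part had 1 mismatch in MGAT5B and RNF20. CLEC3A and RNF20 encode a C-type lectin and a ubiquitin ligase for histone H2B, and C11orf87 encodes a membrane protein.

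**Figure D3:**
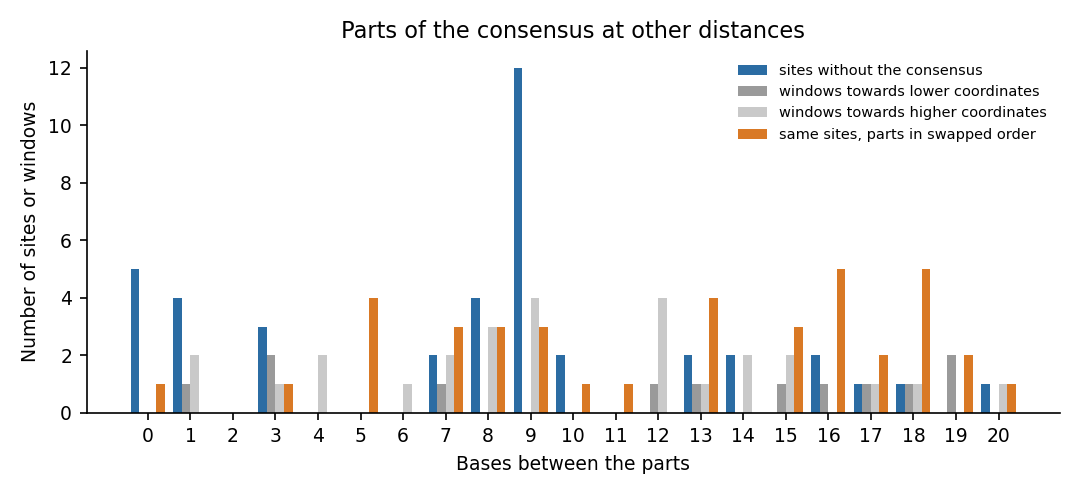
Number of the 84 sites that lack the consensus, and of windows 10 kb from them, that hold both parts at each distance in bases, with at most 1 mismatch per part. The distance of 9 bases stands out with 12 sites, against 0 and 4 windows and 3 sites with the parts in swapped order; a distance of 2 was not counted because it is the consensus itself.

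SF-1 words were searched as CAAGGTCA, CAAGGACA and CAAGGCCA on both strands. They occurred in 46 of the 269 sites (17.1%, interval 13.1 to 22.1%), against 15.1% of all shared sites and 11.2% of the windows (exact two-sided McNemar test against the lower window, p = 0.0248). Against the window on the higher side this difference did not pass (exact two-sided McNemar test, p = 0.130). In 16 of the 46 sites the word lay only within the NRSF/REST element itself, whose left part followed by TT and the G of the right part holds CAAGGACA on the other strand, and 21 matches had TT there. Counting words outside matches of up to 3 mismatches, 30 sites (11.2%) and 10.6% of the windows had one (exact two-sided McNemar test, p = 0.568). CAAGGTCA alone was found in 9 sites (3.35%) and in 4.65% of the windows (exact two-sided McNemar test, p = 1).

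The sites lay in 249 genes, 1.51% of the 16510 protein-coding genes shorter than 100 kb. These host genes were between 3.52 and 99.8 kb long, with a median over sites of 53.2 kb. Of the sites, 215 (79.9%) had their midpoint in an intron of the host gene's main transcript, 15 in a 3′ UTR exon, 2 in a 5′ UTR exon and 37 in the gene but outside that transcript. The first intron held 94 sites (34.9%, interval 29.5 to 40.8%), where 29.4% was the share of the bases allowed by the rule in the same genes. The first 20% of gene length held 64 sites (23.8%, interval 19.1 to 29.2%) against 16.2% of the allowed bases, and the last 20% held 39 (14.5%, interval 10.8 to 19.2%) against 19.1%. The distance from the midpoint to the 5′ end of the host gene had a median of 16.6 kb and reached 78.7 kb. In 14 sites the midpoint fell in more than 1 protein-coding gene, and 31 sites lay within 2 kb of the start of another coding transcript, so the host gene and the distance from promoters depend on the annotation there.

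The element ran in the direction of the host gene in 85 of 185 sites (45.9%, interval 38.9 to 53.1%) and against it in 100, which did not differ from 50% (exact two-sided binomial test, p = 0.303). Chromosome 19 held 36 of the sites (13.4%) and 8.73% of the protein-coding genes shorter than 100 kb. Chromosome 16 held 21 sites (7.81% against 4.66%), and the X chromosome held 3 (1.12% against 4.33%). These genes were counted whether or not they were long enough to hold a site under the rule.

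At the thresholds of the rule, the closest site lay 2001 bp from the 5′ end of a protein-coding gene and the closest shared site on the other side 1997 bp. The longest host gene was SLC2A3 with 99778 bp, and the shortest of the longer genes that held a shared site had 100460 bp. The smallest overlap between the sites of both lists was 49 bp.

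The groups of postsynaptic scaffold and signalling genes, neuronal RNA-binding genes and calcium channel genes held the largest shares. Their intervals were wide and overlapped, at 14.5 to 51.9%, 9.75 to 56.6% and 8.89 to 53.2% in this order. Here and in what follows, a pair of widths gives the basal dosage before the increased one. Each group is a list of gene symbols, and its share is the number of its protein-coding genes shorter than 100 kb that held a site, to be read against 1.51% of all such genes. Over 14 groups of neuronal, channel, transporter and signalling genes, 54 of 872 genes (6.19%, interval 4.78 to 7.99%) held a site, against 195 of 15638 (1.25%) of the remaining genes. The 64 sites in these 54 genes had a median width of 574 bp and the element in 49 (76.6%), and the other 205 sites a median of 399 bp and the element in 136 (66.3%). The groups were chosen with earlier results of these data known, so no test was made. The shares are not adjusted for gene length, although the rule leaves short genes little or no room for a site. The lengths of the genes in and outside the groups were not compared. Genes named here beside the one with the widest site of each group were chosen after their values were seen.

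**Figure D4:**
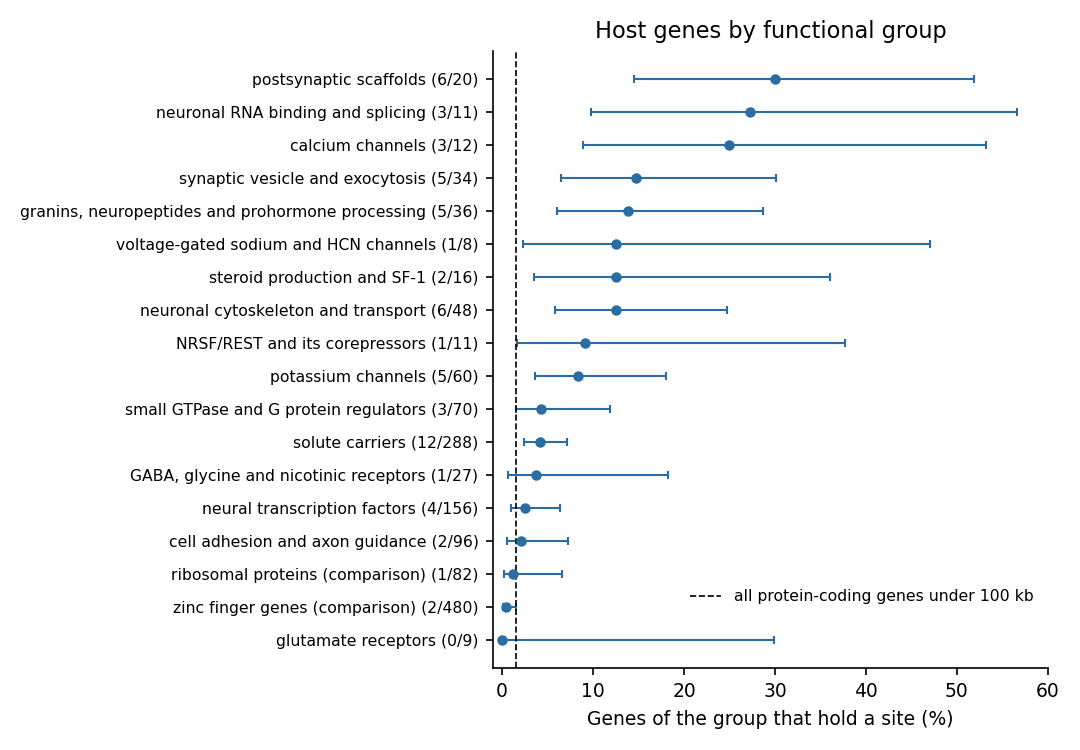
Share of the protein-coding genes under 100 kb in each group that hold a site, in percent, with 95% Wilson intervals; the dashed line marks 1.51% over all such genes. The group of postsynaptic scaffold and signalling genes stands highest at 30.0% (6 of 20), and its 6 genes include CAMKV and the pentraxins NPTX1 and NPTXR. Zinc finger genes, a comparison group, stand at 0.417% (2 of 480). The shares are not adjusted for gene length.

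Postsynaptic scaffold and signalling genes held a site in 6 of 20 cases. In DLGAP3, which encodes a scaffold protein of excitatory synapses, the wider of 2 sites spanned 1049 bp without and 1199 bp with doxycycline and held 3 matches. CAMKV, a kinase-like protein of synaptic vesicles, had a site of 849 and 999 bp with 2 mismatches. SHANK1, the large scaffold below glutamate receptors, had a site of 399 and 299 bp in intron 15 with no mismatch, and CAMK2A, the calcium-dependent kinase of the synapse, one of 299 and 349 bp in intron 2, also with no mismatch. NPTX1 and NPTXR, the neuronal pentraxins, counted in this group and among the neuropeptide genes. Of the 6 genes, DLGAP3 and SHANK1 encode scaffold proteins, and the share of the group rests in part on the others. The NPTXR site was 649 and 799 bp wide in intron 3, and that of NPTX1, of 499 and 449 bp, lay in the 3′ UTR exon and had at best 3 mismatches.

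Synaptic vesicle genes held a site in 5 of 34 cases, with 9 sites in all. RIMS4 and RIMS3 encode active zone proteins that tether vesicles, and UNC13A primes vesicles for release. RIMS4 held 3 sites in its first intron within 3475 bp, of 999, 949 and 199 bp at the basal dosage, the widest with no mismatch. RIMS3 held 2 sites 15.4 kb apart, of 449 and 399 bp, each with the substitution G12A. The UNC13A site was 899 and 949 bp wide in intron 1 with no mismatch. SYT7, a calcium sensor of exocytosis, had a site of 899 and 1099 bp with order number 24 in both lists. CPLX2, a complexin that clamps release, had a site of 899 and 849 bp whose match lay 2 bp from its midpoint. That CPLX2 site lay 221 bp from the nearest start of a coding transcript.

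Ion channel genes held 9 further sites. HCN4, the pacemaker channel, had a site of 999 and 1049 bp in intron 1, 1 of 8 genes in its group. Calcium channel genes held a site in 3 of 12 cases. The CACNA1H site, in the gene of a T-type channel, spanned 1199 and 949 bp in intron 2 and held 2 matches. CACNG7 and CACNG5, which encode auxiliary subunits, had sites of 0.599 kb in both lists and of 299 and 99 bp. Potassium channel genes held a site in 5 of 60 cases. KCNC4, a channel subunit of fast-repolarizing neurons, had a site of 349 and 399 bp with no mismatch. None of 9 glutamate receptor genes shorter than 100 kb held a site, an interval of 0 to 29.9%.

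Neuronal RNA-binding genes held a site in 3 of 11 cases, each with a match without mismatch. CELF5 and NOVA2 encode RNA-binding proteins of neurons, and SRRM3 encodes a splicing factor of neuronal microexons. The sites were 1099 and 1199 bp in CELF5, 699 and 649 bp in NOVA2, and 1049 bp in SRRM3, where 2 sites of 549 and 449 bp stood in its place at the increased dosage. Cytoskeleton and transport genes held a site in 6 of 48 cases. TUBB3, the neuronal beta-tubulin, held 2 sites 1950 bp apart in its first intron, which went from 699 to 549 bp and from 399 to 299 bp between the basal and the increased dosage. The MAPK8IP1 site, in the gene of the JIP1 scaffold, was 749 and 499 bp wide.

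Genes of neuropeptides, growth factors and their processing held a site in 5 of 36 cases, with the element in only 2 of their 5 sites. The site in BDNF, the neurotrophin gene, was 449 and 349 bp wide and had at best 5 mismatches. It lay 2.68 kb from the 5′ end of the gene but 369 bp from the nearest start of a coding transcript. PDYN, the prodynorphin gene, had a site of 399 and 349 bp in its 3′ UTR exon with 3 mismatches, and PCSK1, the prohormone convertase gene, had a site of 299 and 199 bp with 2 mismatches. Solute carrier genes held a site in 12 of 288 cases (4.17%, interval 2.40 to 7.14%). Next to SLC1A6, named by the longest-gene rule, these included SLC8A2, a sodium and calcium exchanger. Its wider site spanned 1099 and 1199 bp. Adhesion and axon guidance genes held a site in 2 of 96 cases, and the site in UNC5A, a netrin receptor gene, spanned 1099 and 1149 bp with order number 12 in both lists and held 3 matches. Neural transcription factor genes held a site in 4 of 156 cases, with the widest in ONECUT1, at 749 bp in both lists. Regulators of small GTPases and G proteins held a site in 3 of 70 cases, the widest being in RAP1GAP, which had 2 sites 11.3 kb apart, the wider of 699 bp and 749 bp. Intervals of the adhesion, transcription factor, GTPase regulator and glutamate receptor groups included 1.51%.

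In genes of steroid production 2 of 16 held a site, and neither site had the element. MC2R, the receptor for adrenocorticotropic hormone, had a site of 349 and 399 bp in its single intron, 14.9 kb from the 5′ end, with at best 4 mismatches. POR, the reductase that supplies electrons to steroid-making P450 enzymes, had a site of 399 and 299 bp in intron 1 with at best 3 mismatches. The POR site lay 521 bp from the nearest start of a coding transcript. Of 11 genes for NRSF/REST and its corepressors, the REST gene alone held a site, of 449 and 399 bp, which lay 47.4 kb from the 5′ end and beyond the end of its main transcript. In the comparison groups, 2 of 480 zinc finger genes and 1 of 82 ribosomal protein genes held a site, also without adjustment for gene length.

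Most genes held a single site. Of the 249 genes, 231 held 1, 16 held 2 and 2 held 3 (RIMS4 and MGAT5B). MGAT5B, which encodes a glycosyltransferase expressed in brain, had sites of 1.15, 0.499 and 0.399 kb at the basal and 0.949, 0.599 and 0.499 kb at the increased dosage over 50.5 kb, and the element was in the 2 narrower ones. Among the genes with 2 sites, the nearest pair was in SLC12A5, the neuronal potassium chloride cotransporter gene, with midpoints 700 bp apart. In 1 of the 2 sites in SLC12A5, SLC8A2, SMPD3, CPLX2, SCAMP5, UBASH3A and BRSK2 no match was found, and in the other 9 genes with 2 sites both had one.

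Widths were close at both dosages. The median was 449 bp in each list, the quartiles were 299 and 649 bp in each, 66 sites had the same width and 171 differed by at most 50 bp, the size of 1 step. The site was at least 1.5-fold wider at the increased dosage in 14 of 269 sites, against 4.93% of all shared sites, and at least 1.5-fold narrower in 21, against 6.56%. Of the 14 wider ones, 12 were under 300 bp at the basal dosage, where 1 step is a large part of the width. Order numbers were close as well (Spearman's rho = 0.93 over the 269 sites, and 0.45 over the 72 under 300 bp, as a description of 2 libraries).

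**Figure D5:**
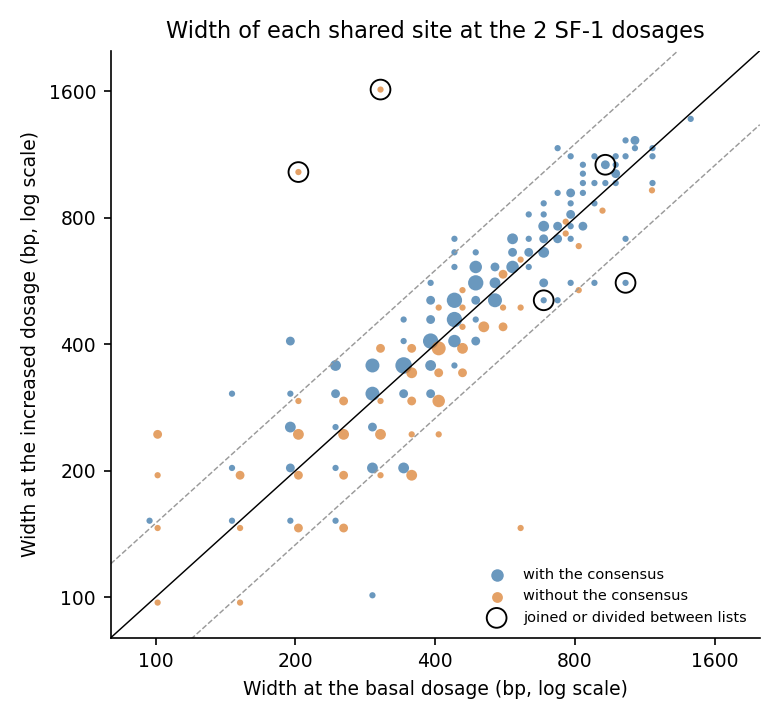
Width in bp at the basal (horizontal) and increased (vertical) dosage for the 269 sites on log axes, blue with and orange without the consensus, the colours set slightly apart; larger points are several sites of equal widths, the solid line marks equal widths and the dashed lines 1.5-fold. The 2 sites far above the line, at 5.52-fold and 5.27-fold, are circled because each shared its site at the increased dosage with another basal site.

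The largest ratios came from sites that were joined in the other list. LHFPL4, which encodes a protein of inhibitory synapses, had a site of 299 bp that overlapped one of 1649 bp (5.52-fold), and a second basal site of 949 bp overlapped that same site. In RIMS4, the site of 199 bp and its neighbour of 949 bp both overlapped 1 site of 1049 bp (5.27-fold and 1.11-fold). The third largest ratio, 2.52, was reached by MARK2 and PDLIM3, both 99 bp at the basal and 249 bp at the increased dosage and both without the element. The smallest ratios were 0.249 in the narrower site of SLC8A2 (0.599 and 0.149 kb), 0.331 in CACNG5 (299 and 99 bp) and 0.523 in SRRM3, whose site was divided in 2. Leaving out the 5 sites that were joined or divided, 12 of 264 were wider and 20 narrower by at least 1.5-fold, with ratios from 0.249 to 2.52. Since no second library was made at either dosage, the spread of width between libraries of the same dosage was not measured.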

How the data were processed

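NRSF/REST ChIP-seq was done in 1 library per SF-1 dosage. Reads were aligned by the authors to hg19 using ELAND (CASAVA 1.6 in the submitters' processing notes), and they deposited 1 list of called sites per library, with positions (chromosome, start and end), an order number and a score that is 1000 for every site. The peak caller and settings for these lists are not given in the sources used here, the depth is unknown, and the 2 input DNA libraries were not analysed here.

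Starts were counted from 1. Genes, coding exons and transcripts came from GENCODE release 44 mapped to hg19 (20176 protein-coding genes of 64486), sequences from the hg19 reference, whose chromosome lengths no site passed. The main transcript is the Ensembl canonical one. For genes without that tag after the mapping, it is the transcript with the longest coding part, then the longest span. Where a site overlapped several sites of the other list, the largest overlap was used. Exact two-sided McNemar tests compared sites with windows 10 kb away, Fisher's exact tests compared classes of sites with Benjamini-Hochberg adjustment over 3 comparisons, and an exact binomial test served for strand. Sites are not replicates of a dosage, several share a gene, and p-values cover counting over sites. No test was made between dosages. The widest-site, gene-group, most-sites and ratio rules chose the named genes, and others were named after their values were seen. Some named items are not reported here. The members and lists were chosen with earlier results of these data known. Steps were tested on simulated data. The tools were pysam 0.24.0, scipy 1.17.1, numpy 2.4.6 and Python 3.11.15. Alternatives changed the overlap, lists, annotation, mismatches and windows. Overlap with repeats was not computed, because the reference sequence used here does not mark them.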

Additional observations from a re-analysis of the deposited data

How the results depend on the processing

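The number of sites was between 184 and 312 under 8 other rules for overlap, list, promoter distance and host gene, and moved to 128 with a limit of 50 kb for gene length and to 513 with 200 kb. The excess of the element over windows passed under all 11 alternatives, with excesses from 21.2 to 75 percentage points. The difference from promoters and coding exons was 0.426 points with no mismatch allowed (Fisher's exact test, adjusted p = 0.929), reversed to -0.712 points at 3 mismatches (adjusted p = 0.860), and no longer passed with genes shorter than 50 kb (10.1 points, adjusted p = 0.0577) or with sites of 300 bp to under 600 bp only (9.44 points, adjusted p = 0.174). The difference from sites outside genes no longer passed with sites of 300 bp to under 600 bp only (7.88 points) or of 600 bp and over only (8.01 points), splits added after the data had been seen. The difference from longer genes passed under none of the alternatives run, nor did the strand share. The excess of SF-1 words over windows was 5.95 points. It no longer passed with the window on the higher side (5.95 points, exact McNemar test, p = 0.130) or outside element matches of up to 3 mismatches (0.558 points). For CAAGGTCA alone it reversed to -1.30 points. The excess of the parts at other distances (16.1 points) no longer passed with the window on the higher side (16.1 points, exact McNemar test, p = 0.20) or with no mismatch in either part (3.57 points). The count of wider sites moved to 5 with an overlap of 50% of both sites and to 8 at 2-fold, and that of narrower sites to 2 at 2-fold. The causes of these changes were not tested. No paired analysis was possible because there is 1 library per dosage. Repeats were not run.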
